A study of Mus musculus with 15 samples.

Results

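Ba/F3-beta cells whose STAT5 proteins had been targeted with siRNAs against Stat5A and Stat5B were compared after 2 h and after 30 min with interleukin-3 (IL-3). Both groups carried the same siRNAs and received the same cytokine, so the comparison follows the response over time in cells with reduced Stat5 mRNA. The groups were taken from the array titles, which gave 6 of the 15 arrays of the series, 1 array per time on each of the 3 designs of the Affymetrix murine U74 set (U74A, U74B and U74C). Each ratio was formed within 1 design.

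The series also held cells given a scrambled control siRNA (scramble I), without IL-3 or with IL-3 for 30 min or 2 h, 1 array per design each. These 9 arrays are used here only to set the Stat5 siRNA values beside them. Stat5 siRNA cells that had not received IL-3 are not among the arrays analysed, so the starting level of a gene in these cells was not measured. Ba/F3 is a mouse blood cell line that needs IL-3 to survive and divide, usually described as pro-B. As it is 1 line, it cannot show how other cells behave. The siRNAs lower Stat5 mRNA and do not remove it.

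IL-3 binds a receptor that activates the kinase JAK2, which phosphorylates STAT5A and STAT5B so that they enter the nucleus and switch on genes such as Cish and Bcl2l1. The same receptor activates the RAS and MAP kinase pathway, which turns on immediate early genes within minutes, and the PI3 kinase and AKT pathway, which keeps the FOXO transcription factors out of the nucleus and so silences genes of quiescence. Immediate early transcripts are short-lived and give way to later genes for growth, among them those that build ribosomes.

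The deposited values were linear probe set signals from 1 array each. Trimmed means (2% off either tail) ran from 150.037 to 150.097 over the 15 arrays. A probe set was counted as measured where at least 1 of its arrays reached a floor of 119.866, and a weaker signal was set to the floor, so that a fold with such a signal is written "at least". A gene was said to rise or fall when its ratio, the median over its probe sets, reached 2-fold. That threshold is a choice of size. With 1 array per time and design there was no replicate, no p-value was computed, and a difference between single arrays cannot be told apart from an effect of time. In RNA from a whole culture, a change in the share of cells with a transcript and a change in the RNA per cell cannot be told apart either.

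The technical error of a single log2 ratio was read from 2056 pairs of probe sets of the same gene, from 1300 genes. Its SD was 0.29 over all pairs, 0.24 within U74A, 0.27 within U74B and 0.33 within U74C, and 3.61% of pairs within U74C lay 2-fold or more apart against 1.40% within U74A. This error holds for probe sets on the same RNA that do not cross-hybridise and had both signals at or above the floor. It leaves out weaker and cross-hybridising probe sets and the spread between cultures. Of the 233 genes that reached 2-fold, 34 had more than 1 probe set in the gene's ratio. In all 34 each of these probe sets moved to the same side of 0. In 20 of them each probe set was past 2-fold by itself. Since the genes were chosen by the median of these same probe sets, both counts are in part set by the choice. Measured cross-hybridising probe sets left out of a gene's ratio were not counted. Those of Psmc3 and Podxl, 2 of the rising genes, included log2 ratios below 0.

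**Figure D1:**
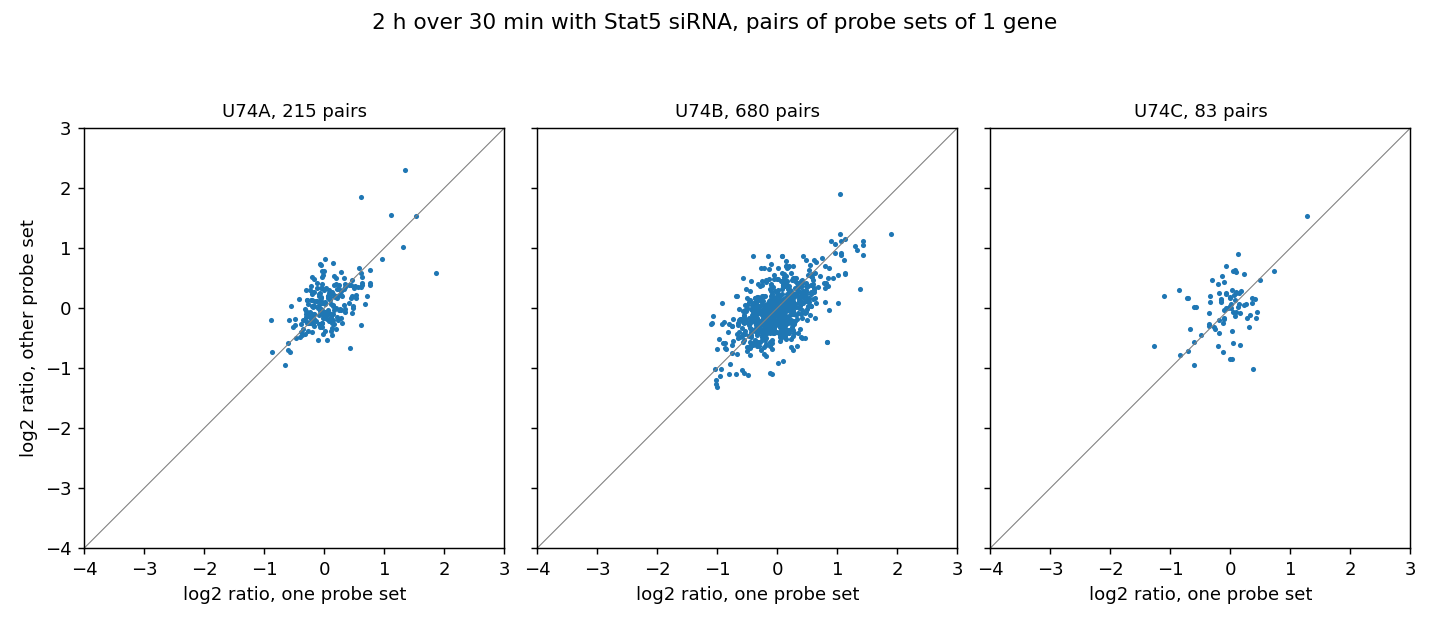
Log2 ratio (2 h over 30 min, Stat5 siRNA) of one probe set of a gene against that of another probe set of the same gene on the same array design, 1 point per pair; the line marks equal ratios. The cloud is wider on U74C (SD of a single ratio 0.33, 83 pairs) than on U74A (0.24, 215 pairs).

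RNA quality was read from control probe sets at both ends of 3 transcripts. The 3' over 5' ratio was 1.01 to 1.15 for actin, 0.728 to 0.815 for Gapdh and 2.64 to 5.49 for Tfrc on the 6 arrays. The lower quartile of signals on U74B was 14.9 at 30 min and 19.2 at 2 h, and in control cells 15.2 and 20.7. Lineage markers did not describe a typical pro-B cell. Of 22 B lineage genes on the arrays only Btk, Cd79b and Ptprc reached the floor on any array, while Cd79a, Vpreb1, Igll1, Pax5, Ebf1, Rag1 and Dntt stayed under it on all 5 arrays of their design. The summed signal of this list was 1966 at 30 min and 1997 at 2 h. Erythroid and megakaryocyte markers were more common, with 12 of 18 at the floor, among them Gata1, Klf1, Hba-a1 and Itga2b. Their summed signal was 11830 at 30 min and 10253 at 2 h with Stat5 siRNA, against 9324 and 7311 with control siRNA. Of the myeloid and mast cell markers 7 of 30 reached the floor, of the T and NK cell markers 2 of 21 (Gzmb and Nkg7), and of the fibroblast and epithelial markers 4 of 22. The summed signals at 30 min and 2 h were 3297 and 2922, 8167 and 6988, and 11022 and 9321 for these lists. Marker counts and sums took the highest probe set of each gene, cross-hybridising ones included. In the last sum Col5a1 supplied 9696 and 8007 from a U74C probe set that can cross-hybridise. Its U74A probe sets had 946 and 1471 at 30 min. Only 1 marker reached 2-fold. Klf1, an erythroid transcription factor, had a signal of 605 at 30 min and 258 at 2 h, a 2.34-fold fall, and in control cells 450.4 and 194. The part of these shifts in the other results was not tested.

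The siRNA targets were low at both times. Stat5a was read from a pair of U74A probe sets that can cross-hybridise. The brighter had 277 at 30 min and 255 at 2 h, and the dimmer 150.3 and 96.5. Stat5b had 166 and 126 on U74B, a log2 ratio of -0.40. In control cells its signals were 536 without IL-3, 499 at 30 min and 177 at 2 h, a 2.82-fold fall between the IL-3 times. The decline of Stat5b over time was thus smaller in size with Stat5 siRNA by 1.10 on the log2 scale, from a start that was already low.

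Between 30 min and 2 h, 19 of 78 measured ribosome biogenesis genes rose and 0 fell, and 7 of 28 genes linked to FOXO factors fell and 0 rose. These lists were chosen with earlier results of these data known, so their counts are not independent of the data. The immediate early genes Fos and Egr2 had the largest falls of all genes. Of 8247 measured genes 135 rose (1.64%) and 98 fell (1.19%). By probe set, 225 of 13499 rose (1.67%) and 171 fell (1.27%). The median log2 ratio over all genes was -0.02. Among the genes that rose, 28 had a signal under the floor at 30 min, and among those that fell, 29 had one at 2 h. U74C alone supplied 30 of the rising and 25 of the falling genes, together 55 of 233, beside 1553 of all 8247 measured genes. Of the 233, 31 had no measured probe set other than cross-hybridising ones, beside 871 of the 8247.

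Few of the rising genes stood 2-fold above the unstimulated level at 30 min, and not all of them did at 2 h. In control siRNA cells, whose arrays took no part in choosing them, 3 of the 135 were 2-fold above the unstimulated level at 30 min and 77 at 2 h. Another 57 lay within 2-fold of that level at 2 h in control cells. In Stat5 siRNA cells 98 of the 135 were 2-fold above the unstimulated control array at 2 h. With Stat5 siRNA at 30 min 2 of the 135 were 2-fold above that array. A further 6 were 2-fold below it, Cdk20, Egflam, Psmc3 and Adam8 among them. The falling genes were of more than one kind. At 30 min 12 of the 98 stood 2-fold above the unstimulated level in control cells, and 19 in Stat5 siRNA cells. The other 79 lay within 2-fold of the unstimulated level at 30 min with Stat5 siRNA. At 2 h 45 of the 98 were 2-fold below the unstimulated control array with Stat5 siRNA and 34 with control siRNA. The genes were chosen by their Stat5 siRNA signals, so the counts with Stat5 siRNA are in part set by the choice. Shares over all measured genes were not counted for these ratios. Ratios of Stat5 siRNA cells to the unstimulated array hold the effect of the siRNA as well as that of IL-3, which cannot be told apart.

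Of 11 measured genes of AP-1 transcription factors 3 fell and 0 rose. Fos, a core AP-1 subunit, had a signal of 1542 at 30 min and 77.6 at 2 h, at least 12.9-fold lower. In control cells Fos went from 9.3 without IL-3 to 1944 at 30 min and 44.3 at 2 h. Both groups thus ended under the floor, in control cells after a peak at 30 min. Jun, the usual partner of Fos, had 271 and 13.1, at least 2.26-fold lower, with 224 and 3.53 in control cells. Junb was read from probe sets that can cross-hybridise. One had 772 and 277, and the other 767 and 446, which gave a median log2 ratio of -1.13 against -1.77 in control cells. The median log2 ratio of the list was -0.45 (-0.40 in control cells), with 7 of 11 genes below 0. Jund, an AP-1 gene that is expressed without stimulation, did not reach 2-fold, with 4316 and 2946.

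Other immediate early transcription factors divided by their timing. Egr2, a zinc finger factor, had 1939 at 30 min and 218 at 2 h, an 8.89-fold fall, beside 2238 and 309 in control cells. Csrnp1, a nuclear protein, had 1236 and 434 with Stat5 siRNA, a 2.85-fold fall. In control cells Csrnp1 fell 5.87-fold, from 2095 to 357. Its smaller ratio with Stat5 siRNA went with a lower signal at 30 min. Id1, a protein that blocks basic helix-loop-helix factors, moved the other way, from 257 to 713, a 2.77-fold rise. Its relative Id2 had 179.9 and 474, a 2.64-fold rise. In control cells Id1 had 368 at 30 min and 911 at 2 h, so its signal was highest at 2 h in both groups. Of the 13 measured genes of this list 2 rose and 2 fell, with a median of 0.09 (0.20 in control cells).

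Among the remaining immediate early genes the activation marker Cd69 and Ier2 fell. Cd69, a lectin on activated lymphocytes, had 1166 at 30 min and 219 at 2 h, a 5.32-fold fall, against 781 and 114 in control cells. Ier2 had 3353 and 1376, a 2.44-fold fall, and 3487 and 874 in control cells. For both, the 2 h signal with Stat5 siRNA lay above that with control siRNA. None of the 9 measured genes of the list rose, 2 fell, and the median was 0.00.

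Feedback inhibitors of MAP kinase split by member. Dusp1, a nuclear phosphatase that switches off MAP kinases, had 1099.8 at 30 min and 354 at 2 h, a 3.11-fold fall (1824 and 448 in control cells). Dusp5, which acts on ERK in the nucleus, had 1806 and 888, a 2.03-fold fall, and 2379 and 1593 in control cells, where it did not reach 2-fold. Dusp6, which acts on ERK in the cytoplasm, rose instead. Its U74A probe set had 153 and 687 and its U74B probe set 158 and 487. The gene value was a 3.71-fold rise, the largest of any gene read on U74A or U74B, beside a 2.88-fold rise in control cells. Spred1, an inhibitor of RAS signalling, had a median log2 ratio of 1.14 over 4 probe sets, of which 1 was under the floor at 30 min; the brightest had 484 and 1807. Of 12 measured feedback genes 2 rose and 2 fell, with a median of 0.09 (0.27 in control cells).

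Factors that destabilise mRNA or restrain division were among the falling genes. Btg2, an antiproliferative protein that promotes mRNA deadenylation, had 1299 and 382, a 3.40-fold fall, and 1188 and 316 in control cells. Zfp36, which binds AU-rich elements and speeds mRNA decay, had 289.8 and 62.2, at least 2.42-fold lower. Tob1, a relative of Btg2, had 445 and 198, a 2.25-fold fall, and fell 4.21-fold in control cells, from 598 to 142. These were the 3 genes of 17 on that list that fell, and 0 rose.

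The promoters of 3 genes that peaked at 30 min in control cells are shown because each holds a sequence that mediates rapid induction in textbook examples. They are the RefSeq windows from 250 bases before to 50 bases from the start site on, in the GRCm38.p6 build, read 5' to 3' on the gene's strand. Capitals mark a CArG box, the site of serum response factor, in Egr2 (chr10:67537316-67537615, plus strand), and the cyclic AMP response element TGACGTCA in Dusp1 (chr17:26508423-26508722, minus strand) and Btg2 (chr1:134079106-134079405, minus strand).
Egr2: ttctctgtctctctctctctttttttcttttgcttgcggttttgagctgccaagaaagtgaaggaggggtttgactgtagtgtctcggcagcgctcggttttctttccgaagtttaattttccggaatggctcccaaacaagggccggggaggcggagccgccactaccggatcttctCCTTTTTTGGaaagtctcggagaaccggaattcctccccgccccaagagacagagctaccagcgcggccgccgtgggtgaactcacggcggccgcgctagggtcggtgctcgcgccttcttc
Dusp1: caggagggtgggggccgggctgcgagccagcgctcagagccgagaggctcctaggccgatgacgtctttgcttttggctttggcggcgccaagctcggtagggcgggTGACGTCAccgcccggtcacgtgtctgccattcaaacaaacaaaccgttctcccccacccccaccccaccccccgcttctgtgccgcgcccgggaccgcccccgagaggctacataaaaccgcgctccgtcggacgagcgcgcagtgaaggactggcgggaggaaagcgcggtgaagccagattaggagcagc
Btg2: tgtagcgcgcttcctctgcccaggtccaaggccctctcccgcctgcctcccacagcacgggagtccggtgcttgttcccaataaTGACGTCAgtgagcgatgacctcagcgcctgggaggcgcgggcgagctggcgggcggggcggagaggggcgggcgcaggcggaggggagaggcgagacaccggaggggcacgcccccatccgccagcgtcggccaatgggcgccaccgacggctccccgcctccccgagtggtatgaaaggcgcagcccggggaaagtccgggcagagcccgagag
The matches begin 72, 143 and 166 bases before the start. The Egr2 window is 1 of 5 start sites in the table and the first by position with a match. A CArG box was present in 1.63% of the 32851 promoters in the table and TGACGTCA in 1.79%. By gene, with any start counted, TGACGTCA was present in 2 of the 80 falling genes with a promoter in the table (2.50%), 0 of 110 rising genes and 3.64% of all 6740 measured genes with one. The CArG box was present in 3 of 80 (3.75%), 3 of 110 (2.73%) and 1.44%. Both motifs read the same on both strands. A match describes the letters only, and a window without one says nothing of the factor.

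**Figure D2:**
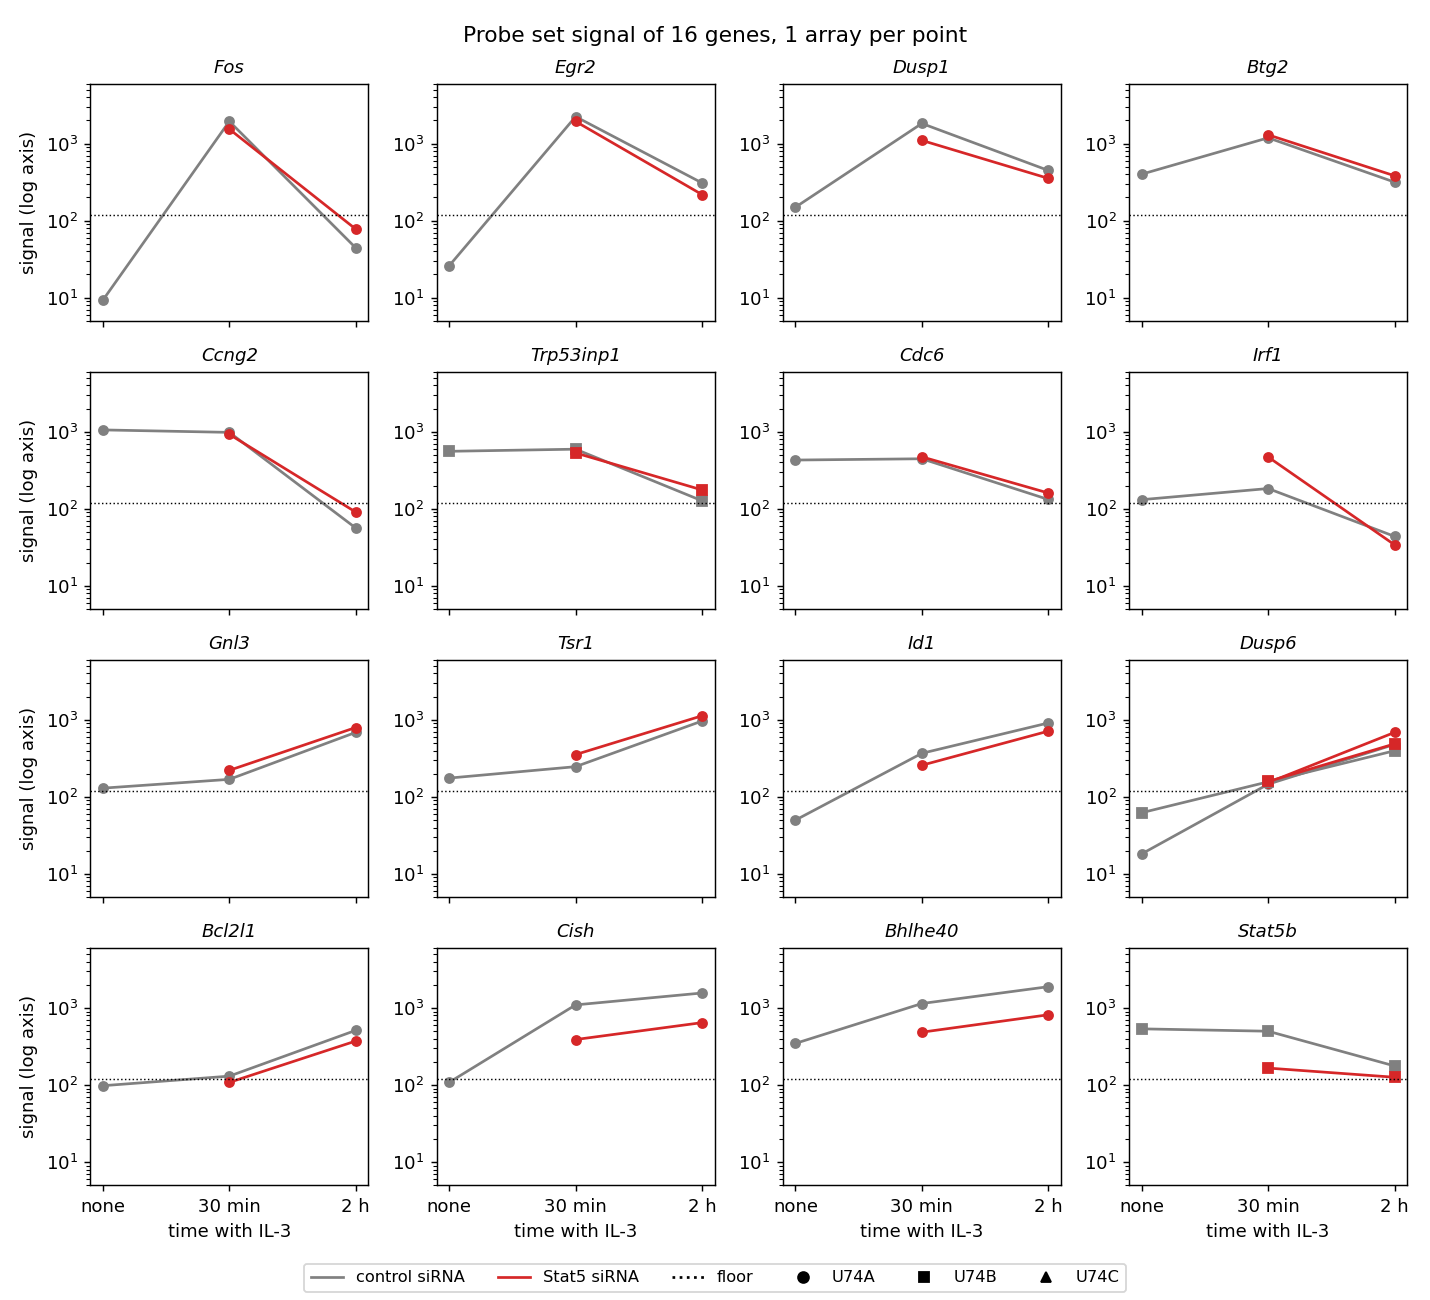
Signal (log axis) of 16 genes without IL-3, at 30 min and at 2 h, 1 array per point; grey, control siRNA; red, Stat5 siRNA; one line per probe set, with marker shape for the array design and the dotted line at the floor of 119.866. Fos and Egr2 drop from 1542 and 1939 at 30 min with Stat5 siRNA, Ccng2 and Cdc6 drop from an unstimulated level, and Gnl3 and Tsr1 climb to 795 and 1129 at 2 h with Stat5 siRNA.

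Genes linked to FOXO factors and growth arrest formed a block of falling genes. Btg2, counted with them, fell from a peak at 30 min, with 401 without IL-3 and 1188 at 30 min in control cells. Ccng2, an atypical cyclin of arrested cells and a FOXO target, had 924 at 30 min and 90.6 at 2 h, at least 7.71-fold lower. In control cells Ccng2 had 1055 without IL-3, 981 at 30 min and 56.3 at 2 h. Its fall thus came after 30 min in the control arrays. Trp53inp1, a stress protein of p53 and autophagy pathways, had 530.1 and 176, a 3.02-fold fall, with 593 and 127 in control cells. Rnf125, a ubiquitin ligase, had 3601 and 1322 on U74B and 1987 and 586 on U74C. The median was a 3.04-fold fall, and both designs were past 2-fold. Mxi1, a MAX partner that opposes MYC, had 380.2 and 152, a 2.51-fold fall, and did not reach 2-fold in control cells, with 388 and 263. Txnip, which limits glucose uptake, had 1020.3 and 494, a 2.07-fold fall.

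Of the 28 measured genes on the FOXO list 7 fell, Btg2 and Tob1 among them, and 0 rose, against 1.19% and 1.64% of all genes. Because the list was chosen with earlier results of these data known, this comparison may be in part set by the choice. The list's median log2 ratio was -0.59, and 23 of 28 lay below 0; in control cells 6 of 29 fell and the median was -0.56. Of other genes with large falls, Arrdc3, an arrestin-like adaptor, had 595 and 190.2, a 3.13-fold fall, with 466 and 151 in control cells. E2f8, an atypical E2F repressor read from cross-hybridising probe sets, fell 3.08-fold. Gchfr, Tk2 and Nwd2 had folds of 3.66, 3.58 and at least 3.29 but were read on U74C only, and Gchfr only from a probe set that can cross-hybridise.

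On the 2 cell cycle lists, for G1/S and for G2/M, most genes had ratios below 0 and only Cdc6 reached 2-fold; cell cycle genes outside them, such as E2f8 above, are not in this count. Cdc6, which loads the replicative helicase onto origins, had 472 at 30 min and 160.1 at 2 h, a 2.95-fold fall, and 445 and 132 in control cells. Of the other 49 measured G1/S and replication genes none reached 2-fold, while 37 of the 50 lay below 0 and the median was -0.37 (-0.46 in control cells). Among 47 G2/M and mitosis genes 0 rose and 0 fell, yet 44 lay below 0, with a median of -0.42 (-0.37 in control cells). The lowest ratio was that of Nusap1, a spindle protein, with 525 and 265 on U74B, a log2 ratio of -0.98. By comparison 52.8% of all genes lay below 0. Median scaling of the arrays put the median of the G1/S list at -0.18 and that of the G2/M list at -0.26.

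Ribosome biogenesis made up the largest block of rising genes. Gnl3, the nucleolar GTPase nucleostemin, had 221 at 30 min and 795 at 2 h, a 3.59-fold rise, with 169 and 687 in control cells. Wdr43, a component of the small subunit processome, had 192 and 489.6 on one U74A probe set and 160.0 and 786 on another, a median rise of 3.54-fold. Tsr1, which matures the small ribosomal subunit, had 354 and 1129, a 3.19-fold rise, and 247 and 965 in control cells. For each of these the 2 h signals of both siRNA groups lay above every 30 min signal of the same probe set. Rrs1, needed for the large subunit, had 154 and 458, a 2.97-fold rise, against at least 4.37-fold in control cells. Nop2, an rRNA methyltransferase, had 196 and 557, a 2.84-fold rise, and 4.79-fold in control cells.

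Of 78 measured ribosome biogenesis genes 19 rose and 0 fell, beside 1.64% of all genes rising. The same limit on the choice of the list holds here. The 19 were Gnl3, Wdr43, Tsr1, Rrs1, Bysl, Nop2, Utp18, Rrp1b, Nop58, Utp4, Gtpbp4, Nolc1, Ddx18, Dkc1, Wdr75, Rrp15, Nol11, Heatr1 and Nol10. The list's median was 0.46, and 70 of 78 genes lay above 0. In control cells 23 of 77 rose and the median was 0.55. Over the 77 genes measured in both groups, the Stat5 siRNA ratio was the lower one in 44 and the higher one in 33, with a median difference of -0.04. Genes of the ribosome's own proteins showed no such rise. None of 27 cytosolic ribosomal protein genes reached 2-fold, and their median was -0.11 with Stat5 siRNA and 0.13 with control siRNA. The ratio with Stat5 siRNA was the lower one in 22 of the 27, with a median difference of -0.25, but the sign of the Stat5 siRNA median flipped under other scaling, to 0.08 with median scaling and 0.01 with quantile scaling. Rps3, a small subunit protein, had 6744 and 5478, and Rpl19, of the large subunit, 7151 and 5848.

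The promoters of 3 rising ribosome biogenesis genes are printed to show the E-box CACGTG, the element bound by MYC and MAX, in capitals. They are Tsr1 (chr11:74897830-74898129), Wdr43 (chr17:71615965-71616264) and Nop2 (chr6:125131633-125131932), all on the plus strand of GRCm38.p6, from RefSeq.
Tsr1: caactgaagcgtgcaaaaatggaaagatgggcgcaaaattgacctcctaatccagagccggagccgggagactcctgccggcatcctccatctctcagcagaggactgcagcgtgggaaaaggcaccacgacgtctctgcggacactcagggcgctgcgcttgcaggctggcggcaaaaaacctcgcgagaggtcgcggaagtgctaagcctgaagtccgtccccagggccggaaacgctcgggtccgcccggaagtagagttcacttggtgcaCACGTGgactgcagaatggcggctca
Wdr43: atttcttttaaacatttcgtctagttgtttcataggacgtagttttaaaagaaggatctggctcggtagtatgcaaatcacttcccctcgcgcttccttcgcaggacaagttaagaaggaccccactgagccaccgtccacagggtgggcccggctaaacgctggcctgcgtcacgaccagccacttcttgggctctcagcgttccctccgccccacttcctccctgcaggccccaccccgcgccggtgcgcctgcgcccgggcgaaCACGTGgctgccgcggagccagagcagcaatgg
Nop2: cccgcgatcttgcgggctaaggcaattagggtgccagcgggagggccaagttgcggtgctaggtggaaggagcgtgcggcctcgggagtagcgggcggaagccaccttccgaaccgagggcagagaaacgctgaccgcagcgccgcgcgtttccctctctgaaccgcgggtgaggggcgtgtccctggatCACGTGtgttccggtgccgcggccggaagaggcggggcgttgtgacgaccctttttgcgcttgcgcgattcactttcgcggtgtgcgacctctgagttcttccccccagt
The E-box begins 24 bases after the start in Tsr1, 17 after it in Wdr43 and 60 before it in Nop2. CACGTG, the same on both strands, was present in 7.15% of all promoters in the table. By gene it was present in 6 of the 18 rising ribosome biogenesis genes with a promoter there (33.3%) and in 8 of the 49 that did not rise (16.3%). The share was 20.0% of all 110 rising genes, 18.8% of the 80 falling genes and 11.9% of the measured genes. Gnl3 was among those with no match in this window. The window of the falling gene Dusp1 printed above also holds CACGTG, left in lower case there. Myc itself, the usual ligand of this element, did not reach 2-fold between the times, with 452 and 481 in Stat5 siRNA cells and 527 and 339 in control cells. Its partner Max had 314 and 532 on U74A, a log2 ratio of 0.76, and Mycn had 621 and 1080.5, a ratio of 0.80.

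A minority of genes for translation and amino acid supply rose. Eif3j1, a subunit of initiation factor eIF3, had 321 and 917, a 2.86-fold rise, and did not reach 2-fold in control cells, with 480.2 and 835. Eef1e1, a scaffold of the tRNA synthetase complex, had 944 and 2465, a 2.61-fold rise. Eif1a, which scans for the start codon, rose 2.52-fold as the median of a pair of probe sets. These were the 3 of 39 translation factors that rose, and 0 fell, with a median of 0.20 (0.08 in control cells). On the amino acid and ATF4 list 4 of 35 genes rose and 0 fell, with a median of 0.28, while in control cells 0 of 33 did and the median was 0.12.

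The 4 were as follows. Slc7a1, the main arginine transporter, had 294 and 685, a 2.33-fold rise (234 and 417 in control cells). Cebpb, a transcription factor that works with ATF4, had 246 and 556, a 2.26-fold rise (247 and 356 in control cells). Tars, the threonyl-tRNA synthetase, had 206 and 426, a 2.07-fold rise (253 and 424 in control cells). All 3 had ratios above 0 in control cells, none of them 2-fold. Trib3, a pseudokinase induced by ATF4, had 107 and 263, at least 2.20-fold higher, and stayed under the floor in control cells, at 29.1 and 61.0. Over the 32 genes of this list measured in both groups the median difference between the groups was 0.02, with the Stat5 siRNA ratio the higher one in 17 and the lower one in 15. Eif4ebp1, an ATF4 target that restrains translation, lay just below the threshold at 190.2 and 379, with 189 and 202 in control cells.

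Among genes known as STAT5 targets in blood cells, Cish had lower signals than control cells at both times and a time ratio close to theirs. Cish, the feedback inhibitor of cytokine receptors, had 389 at 30 min and 645 at 2 h, a log2 ratio of 0.73. In control cells Cish had 108 without IL-3, 1097 at 30 min and 1565 at 2 h, a ratio of 0.51. Its signal with Stat5 siRNA at 2 h was therefore below that of control cells at 30 min. Bcl2l1, which encodes the survival protein BCL-XL, had 108 and 372, at least 3.11-fold higher, with 130.4 and 512 in control cells. It was the only STAT5 target that rose, of 17 measured, and Dusp5 above the only one that fell. Pim2, a survival kinase, had 88.0 and 198, a log2 ratio of at least 0.73, and in control cells 115 and 411, a ratio of at least 1.78. Tnfrsf13b, the receptor TACI, had 918 and 643, a ratio of -0.52, and moved the other way in control cells, from 1345 to 2091 (0.64). The list's median was 0.07 (0.10 in control cells), and over the 16 genes measured in both groups the Stat5 siRNA ratio was the lower one in 11.

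The Cish promoter is shown because it carries a known tandem STAT site in capitals, written TTCNNNGAA in the search (chr9:107296409-107296708, plus strand, GRCm38.p6, from RefSeq).
Cish: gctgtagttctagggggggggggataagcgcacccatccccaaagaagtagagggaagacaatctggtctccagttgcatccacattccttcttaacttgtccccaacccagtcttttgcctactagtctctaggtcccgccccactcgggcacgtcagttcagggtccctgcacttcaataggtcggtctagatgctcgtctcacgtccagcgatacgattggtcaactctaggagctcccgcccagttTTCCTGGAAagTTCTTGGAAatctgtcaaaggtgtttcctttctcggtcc
The first match begins at the start site in this annotation and the second 11 bases after it. TTCNNNGAA was present in 8.30% of all promoters. By gene the share was 12.7% of 110 rising, 11.2% of 80 falling and 8.09% of 6740 measured genes. For these motif counts 110 of the 135 rising and 80 of the 98 falling genes matched the promoter table by symbol, and no overlap between the motifs was counted.

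Other genes with signals lower in Stat5 siRNA cells at both times still climbed. Bhlhe40, a repressor of the circadian family, had 485 and 816, a log2 ratio of 0.75, against 1143 and 1889.9 in control cells (0.73). Xbp1, a factor of the unfolded protein response, had 394 and 777 (0.98) against 774 and 1539 (0.99). The time ratios of these genes were thus within 0.03 of each other between groups, while the signals differed. Il4ra, the interleukin-4 receptor, had 169 and 356, a 2.11-fold rise, and 289 and 649 in control cells. It was the only 1 of 30 measured JAK-STAT and receptor genes that rose, and 0 fell. Slc2a3, a glucose transporter, rose 2.14-fold as the median of 3 probe sets, of which 2 had a signal under the floor, and was the only rising gene of 21 on the glycolysis list.

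Interferon-linked genes stood out by Irf1. Irf1, a transcription factor of interferon responses and a STAT target, had 470.1 at 30 min and 34.1 at 2 h, at least 3.92-fold lower. In control cells it had 131, 183 and 43.8 over the 3 time points. The 30 min signal with Stat5 siRNA was thus above that of control cells, and both were under the floor at 2 h. Of 44 measured interferon genes Irf1 was the only one that fell, and 0 rose, with a median of 0.06 (-0.09 over 36 genes in control cells). Gbp7, an interferon-induced GTPase, had 369.9 and 708, a log2 ratio of 0.94, while it had 284 and 266 in control cells. Ccl5, a chemokine, had 1659.8 and 1239 (-0.42) and stayed under the floor with control siRNA, at 61.4 and 44.7. More interferon genes were measured with Stat5 siRNA (44) than with control siRNA (36), since a gene needs 1 signal at the floor to be counted.

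**Figure D3:**
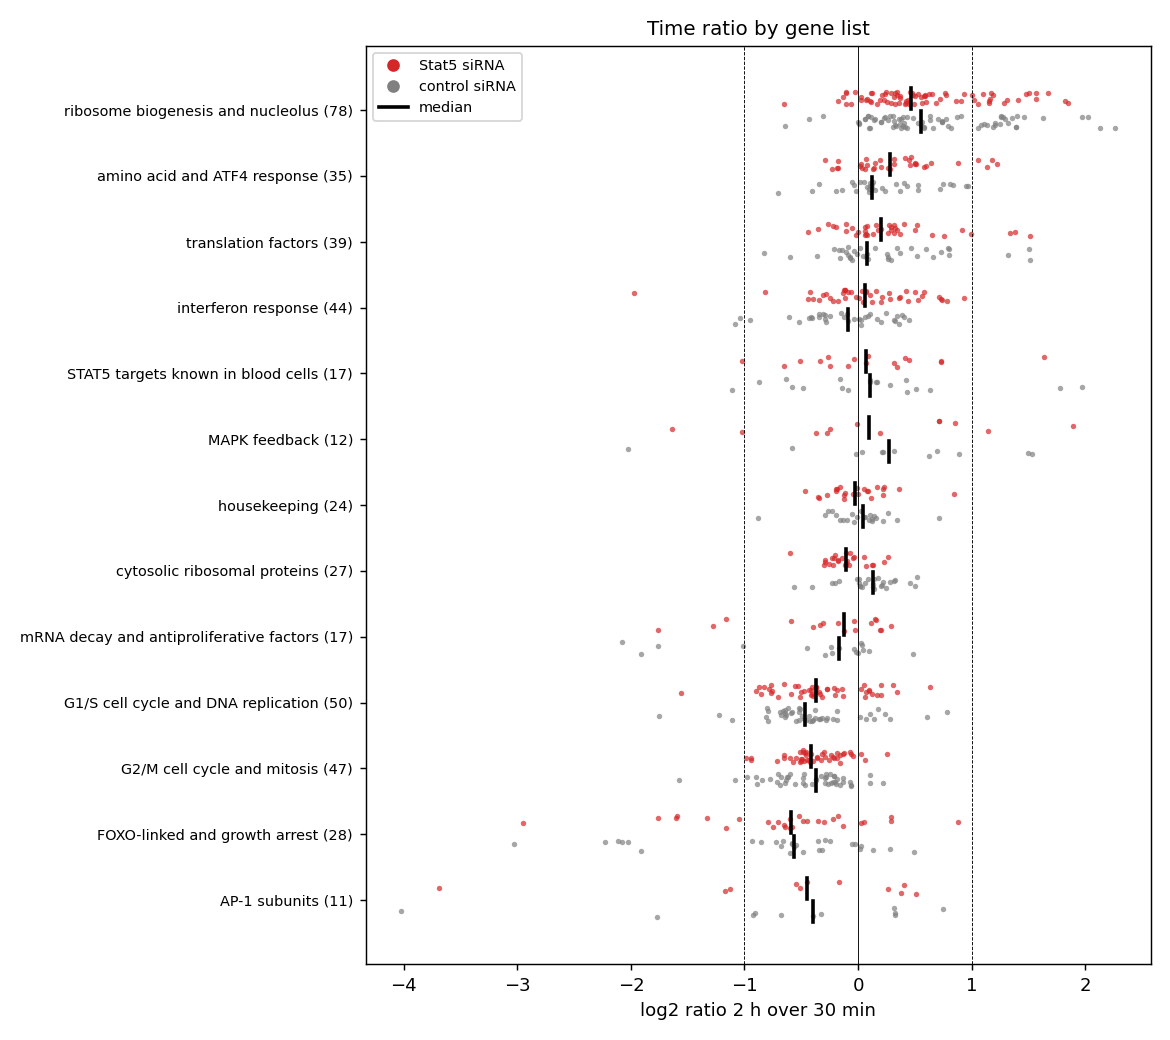
Log2 ratio (2 h over 30 min) of each gene by list, with the number measured in Stat5 siRNA cells in brackets; red, Stat5 siRNA; grey, control siRNA; black bars, medians over all measured genes of the list in that group; dashed lines, 2-fold. Ribosome biogenesis has the highest median of the lists drawn in both groups (0.46 and 0.55), and FOXO-linked genes the lowest (-0.59 and -0.56).

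Lists without a rise or a fall were ribosomal proteins, G2/M genes, chaperones, the unfolded protein response, NF-kB linked genes, cholesterol and fatty acid synthesis, polyamine and nucleotide synthesis, mitochondrial respiration, circadian factors and housekeeping genes. The median of 24 housekeeping genes was -0.03 and that of 46 respiratory chain genes 0.01. Of 17 apoptosis regulators Bcl2l1 rose and none fell, and of 9 genes of the MYC and MAX network Mxi1 fell and none rose.

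Some genes with large rises belong to none of these lists. Podxl, a sialomucin of blood progenitors, had 275 and 917, a 3.34-fold rise, and 339 and 1174 in control cells, though a cross-hybridising probe set on U74C gave 536 and 407. Adam8, a membrane protease, had 173 and 534, a 3.09-fold rise. In control cells it had 365 without IL-3, then 400 and 969. Sec24a, a coat protein of vesicles leaving the endoplasmic reticulum, had 349 and 1133, a 3.25-fold rise. In control cells it had 657 without IL-3, then 733 and 1314, a 1.79-fold rise. For both genes the signal with Stat5 siRNA at 30 min was the lowest of all arrays of the design. B4galt5, a galactosyltransferase, rose 3.02-fold, and Nhlrc1, a ubiquitin ligase, at least 3.16-fold. Lrp12, a lipoprotein receptor relative, had 267 and 947 on U74C, a 3.54-fold rise, close to the 3.16-fold of control cells. Prag1, a pseudokinase, had 846 and 3067 on U74C, a 3.62-fold rise.

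The largest rises were read on U74C only and were not seen in control cells. Cdk20, a cell cycle kinase relative, had 126 and 634, a 5.02-fold rise, and 344 and 329 in control cells. Egflam, which encodes the matrix protein pikachurin, had 119 and 557, at least 4.65-fold higher, from a probe set that can cross-hybridise, and 665 and 627 in control cells. In both genes the Stat5 siRNA array at 30 min gave the lowest of the 5 signals, and the other arrays lay at 329 or above.

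Set beside the control siRNA time course, most of the response was shared in direction. The 2 ratios use no common array. In control cells 156 of 8234 genes rose (1.89%) and 136 fell (1.65%). Of the 133 genes that rose with Stat5 siRNA and were measured in both, 122 had a ratio above 0 in control cells and 76 rose there too, which is 57.1% of the Stat5 siRNA list and 49.0% of the 155 of the control list. Of 97 that fell, 88 lay below 0 in control cells and 49 fell there, 50.5% of the Stat5 siRNA list and 36.6% of the 134 of the control list. The median log2 ratio of the rising genes was 1.18 with Stat5 siRNA and 1.10 in control cells, and that of the falling genes -1.20 and -1.0. Since the genes were chosen by the Stat5 siRNA ratio, the larger size there is in part set by the choice. Over 7924 genes the ratios correlated with a Pearson r of 0.61 and a Spearman coefficient of 0.53, as a description over genes that share arrays.

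The difference between the ratios reached 1 on the log2 scale in 156 genes, 91 with the higher ratio in Stat5 siRNA cells and 65 with the lower. Of these 54.5% were read on U74C only, against 17.9% of all genes measured in both, so the least precise design supplied over its share. The SD of the difference over all genes was 0.38. Genes on U74A or U74B with such a difference included Csrnp1 (1.04 higher), Gbp7 (1.03 higher) and Stat5b (1.10 higher). Others there had the lower ratio with Stat5 siRNA, such as Irf1 (-1.36) and the STAT5 target Pim2 (-1.05). For Irf1 and Pim2, 1 signal of each group was under the floor. No difference of this kind could be tested.

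**Figure D4:**
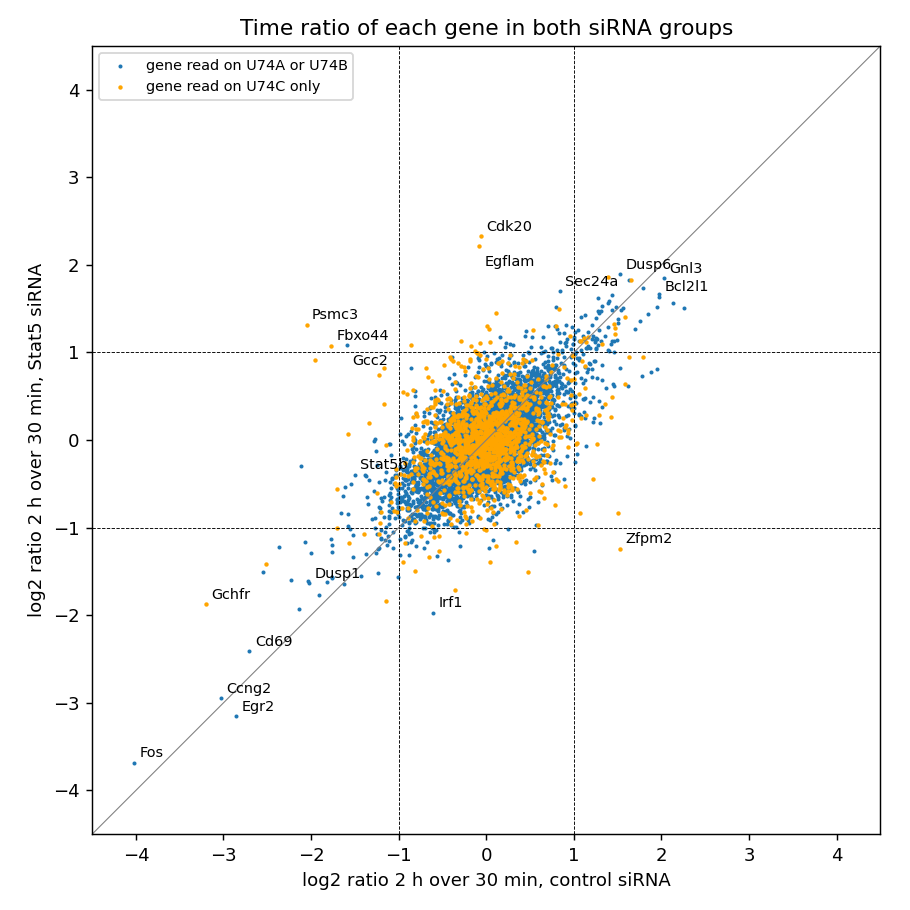
Log2 ratio (2 h over 30 min) of each of 7924 genes in Stat5 siRNA cells (vertical) against control siRNA cells (horizontal); orange, genes read on U74C only; dashed lines, 2-fold; grey line, equal ratios. Fos, Egr2, Ccng2 and Cd69 lie near the line at the lower left and Gnl3, Dusp6 and Bcl2l1 at the upper right, while Cdk20, Egflam, Psmc3, Fbxo44, Gcc2 and Zfpm2 lie far from it.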

How the data were processed

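Expression had been measured on 15 arrays, and the 6 arrays of Stat5 siRNA cells with IL-3 were compared by title. Per the submitters' processing notes the deposited values are MAS5 signals, a linear intensity per probe set, which the authors had brought to 1 level per array. Noise and detection filters stated in the design text were not applied here, and a floor was used instead: the intensity that 14553 of 36701 non-control probe sets reached on their highest array, the number the design text says passed. Batches and scan times are not given in the sources used here.

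From these intensity values, arrays were brought to 1 trimmed mean (2% off either tail), signals were raised to the floor of 119.866, and log2 ratios were taken by probe set and then as the median by gene. Probe sets with the suffix _f_at, _i_at, _r_at or _x_at, which can cross-hybridise, entered a gene's ratio only where it had no other measured one. The marker counts and sums used them as well. Gene symbols came from the platform annotation, which gave 1 symbol for 29131 probe sets, several for 724 (not used) and none for 6846. The steps used Python 3.11.15, numpy 2.4.6, pandas 2.3.3, scipy 1.17.1 and matplotlib 3.10.9 and were tested on simulated data. All columns of sample values were used.

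There was 1 array per condition and design, so no test was made, and how precise a value is depends on that number. The rule for names took both siRNA targets, the top 15 rising and top 15 falling genes by ratio, the 4 members of each of 31 gene lists with the largest ratios, and the genes with the largest differences from control cells. Not every gene that this rule allows is described, and 1 of them is not reported here. The other list members named, and the promoters printed, were chosen after their values were seen. The members and the lists were chosen with earlier results of these data known, and Lrp12 was taken off the STAT5 target list after its values were seen, because general knowledge does not place it there. Alternatives in scaling, floor, filter, gene value and array design were tried.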

Additional observations from a re-analysis of the deposited data

Results flagged for a closer look

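In 4 genes the time ratio was past 2-fold one way with Stat5 siRNA and past 2-fold the other way with control siRNA. None of these differences was tested, since no condition had a second array of a design. Psmc3, a proteasome ATPase, had signals of 288 at 30 min and 719 at 2 h with Stat5 siRNA and 943 and 228 with control siRNA, a difference of 3.37 on the log2 scale. That value comes from 1 probe set on U74C, while 3 cross-hybridising probe sets of the gene on U74A gave log2 ratios between -0.28 and 0.08 with Stat5 siRNA. Fbxo44, a ubiquitin ligase subunit, had 106 and 253 with Stat5 siRNA and 409 and 91.4 with control siRNA on U74C, a difference of at least 2.85 with 1 signal of each group under the floor, and 0.85 to 3.41 over the alternatives. Gcc2, a Golgi golgin, had 197 and 416 against 503 and 167, a difference of 2.67, from a cross-hybridising probe set on U74B. Zfpm2, a GATA cofactor, had 283 and 67.0 against 61.7 and 346 on U74C. Its difference of -2.77 is a bound as well, since 1 signal of each group was under the floor, and it ranged from -4.57 to 0 over the alternatives. Of the 4, 3 were read on U74C only.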

How the results depend on the processing

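The counts of genes and probe sets depended mainly on the floor. With the floor halved 206 genes rose and 187 fell, and by probe set 448 and 411; with the floor doubled 84 and 46 genes and 127 and 77 probe sets did. Without raising signals to the floor the counts were 253 and 228 genes and again 448 and 411 probe sets, which both settings choose by the same condition. Without the filter 63 genes fell. U74A and U74B alone gave 112 falling probe sets, and U74A alone 56 and 38 genes and 70 and 42 probe sets, from fewer probe sets. The other 42 of 60 counts were within 1.5 times. No alternative moved the share of rising genes among those past 2-fold by over 10 percentage points (57.9% in the main setting, 52.4% to 64.6% over the alternatives). Psmc3 went to -0.043 with all probe sets on equal terms and -0.17 with U74A and U74B only or U74A only, where its difference from control cells was -0.11. The difference of Pik3ip1, a PI3 kinase inhibitor, went from 1.81 to -0.60 with the floor halved and -0.37 with the floor doubled, because the main value set different probe sets of the gene against each other. Among time ratios of named genes 1981 of 2143 alternative values stayed within 1 SD of the technical spread and 159 moved by more without turning a 2-fold change. The median of the ribosome biogenesis list ranged from 0.36 to 0.61 and that of the FOXO list from -0.63 to -0.06, the last without the filter, where genes under the floor on both arrays count as 0. No paired analysis was possible because each condition had 1 array per design.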

Other observations

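Haemoglobin alpha and Itga2b, the integrin of megakaryocytes, had signals that differed between the siRNA groups more than between the times. Hba-a1 had 1102 at 30 min and 1172 at 2 h with Stat5 siRNA, against 471 and 447 with control siRNA. Itga2b had 4170.2 and 4168 against 3050.4 and 2908. Other members of the erythroid and megakaryocyte list, among them Klf1 above, Gata1 and Zfpm1, differed more between the times than between the groups. Gata1 had 494 and 257 against 389 and 222, and Zfpm1 2460 and 1663 against 2148 and 1402. Limits: each value rests on 1 array, the floor hides changes of genes with weak signals, U74C had the widest technical spread, and the time and the array cannot be told apart. The arrays hold no protein measure, so the extent of STAT5 loss was not measured.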
